A study of Mus musculus with 30 samples.

Results

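The genes described here carry and break down glucose, or belong to the response to low oxygen. A list of 37 mouse genes was used, and a gene was followed where the platform annotation gave its symbol, with the brightest of its transcript clusters (the units that the array reports) standing for the gene. Of these, 34 were measured, among 19479 genes with 1 symbol and 22103 transcript clusters, and Gpi1, Eno1 and G6pdx were not analysed here. The 34 genes were 6 transporters, 14 glycolytic enzymes, 3 regulators of flux, 1 enzyme of the pentose phosphate pathway, 3 genes of the oxygen-sensing system itself and 7 of its targets. The rule used no measured value beyond the brightness of clusters, and members were chosen with earlier results of these data known.

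Expression was measured on Affymetrix Clariom HT arrays in myeloid cells sorted from the ischemic brain hemisphere of mice that lacked TREM1 (TREM1-/-, KO), a receptor that amplifies inflammatory signalling, and of wild-type mice (TREM1+/+, WT). All were male C57BL/6 mice 8 to 10 weeks old, and in all of them the middle cerebral artery was occluded for 45 min and reperfused for 48 h, so no group came from uninjured brain. Neutrophils were gated as CD45Hi CD11b+ Ly6G+ cells and macrophages as CD45Hi CD11b+ Ly6G- cells, and the labels give the microglia gate as CD45Lo CD11b+ Ly6G+. Neutrophils were run on 4 arrays from WT and 5 from KO mice, macrophages on 3 and 6, and microglia on 6 from each genotype. The labels call each array a biological replicate and do not say whether animals were pooled or which part of Trem1 was deleted, so every p-value measures the spread between these arrays. All values are limited in precision by the small number of arrays, and in sorted bulk RNA a different mix of cells and a different level per cell cannot be told apart.

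The sorted cells carried the markers of their labels. The summed intensity of the 9 measured neutrophil markers was 18.87 to 20.42 on the log2 scale in neutrophil arrays and 13.46 to 15.81 in all others, and that of the 9 measured microglia markers was 18.23 to 19.15 in microglia and 12.73 to 17.02 in the rest. The 10 markers of monocytes and macrophages summed to 18.65 to 18.92 in macrophages, 17.04 to 18.03 in neutrophils and 15.04 to 16.06 in microglia. Neutrophil arrays varied in a further measure. Over 2006 broadly expressed clusters, chosen as bright in every macrophage and microglia array, the median log2 level was 13.26 to 13.49 in those arrays, 12.85 to 13.21 in KO neutrophils, and 12.91, 12.80, 12.69 and 12.41 in WT neutrophils 1 to 4. Since neutrophil arrays had no part in that choice, a lower level in them is partly fixed by it, and the measure is used between neutrophil arrays. In WT neutrophils 1 to 4, 20, 89, 107 and 203 of these clusters lay more than 3 log2 units below the other cells, against 5 to 24 in KO neutrophils. WT neutrophil 2 was thus close to WT neutrophil 3 in that count, and leaving out WT neutrophils 3 and 4 below is a choice with no clear gap behind it. WT neutrophil 4 alone lay apart, in that count and in marker sums given below. The Trem1 cluster gave signal in KO cells as well, at a mean log2 intensity of 15.98 ± 0.51 (SD, n = 5) in KO and 17.20 ± 0.29 (n = 4) in WT neutrophils, and its probes may lie outside the deleted part, so it does not test the genotype. These array differences are given again beside the results that they touch.

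Glycolysis turns glucose into pyruvate in the cytosol and yields ATP without oxygen. Neutrophils hold few mitochondria and are known to draw most of their ATP from it, and inflammatory macrophages raise it when they are activated. In low oxygen the prolyl hydroxylases, which mark HIF-1alpha (gene Hif1a) for destruction, lose activity. HIF-1 then binds short DNA elements with the core ACGTG or GCGTG and raises the transcription of glucose transporters, glycolytic enzymes, lactate export, mitophagy receptors and angiogenic factors. Much of the control of HIF-1 acts on its protein, which arrays do not measure.

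**Figure D1:**
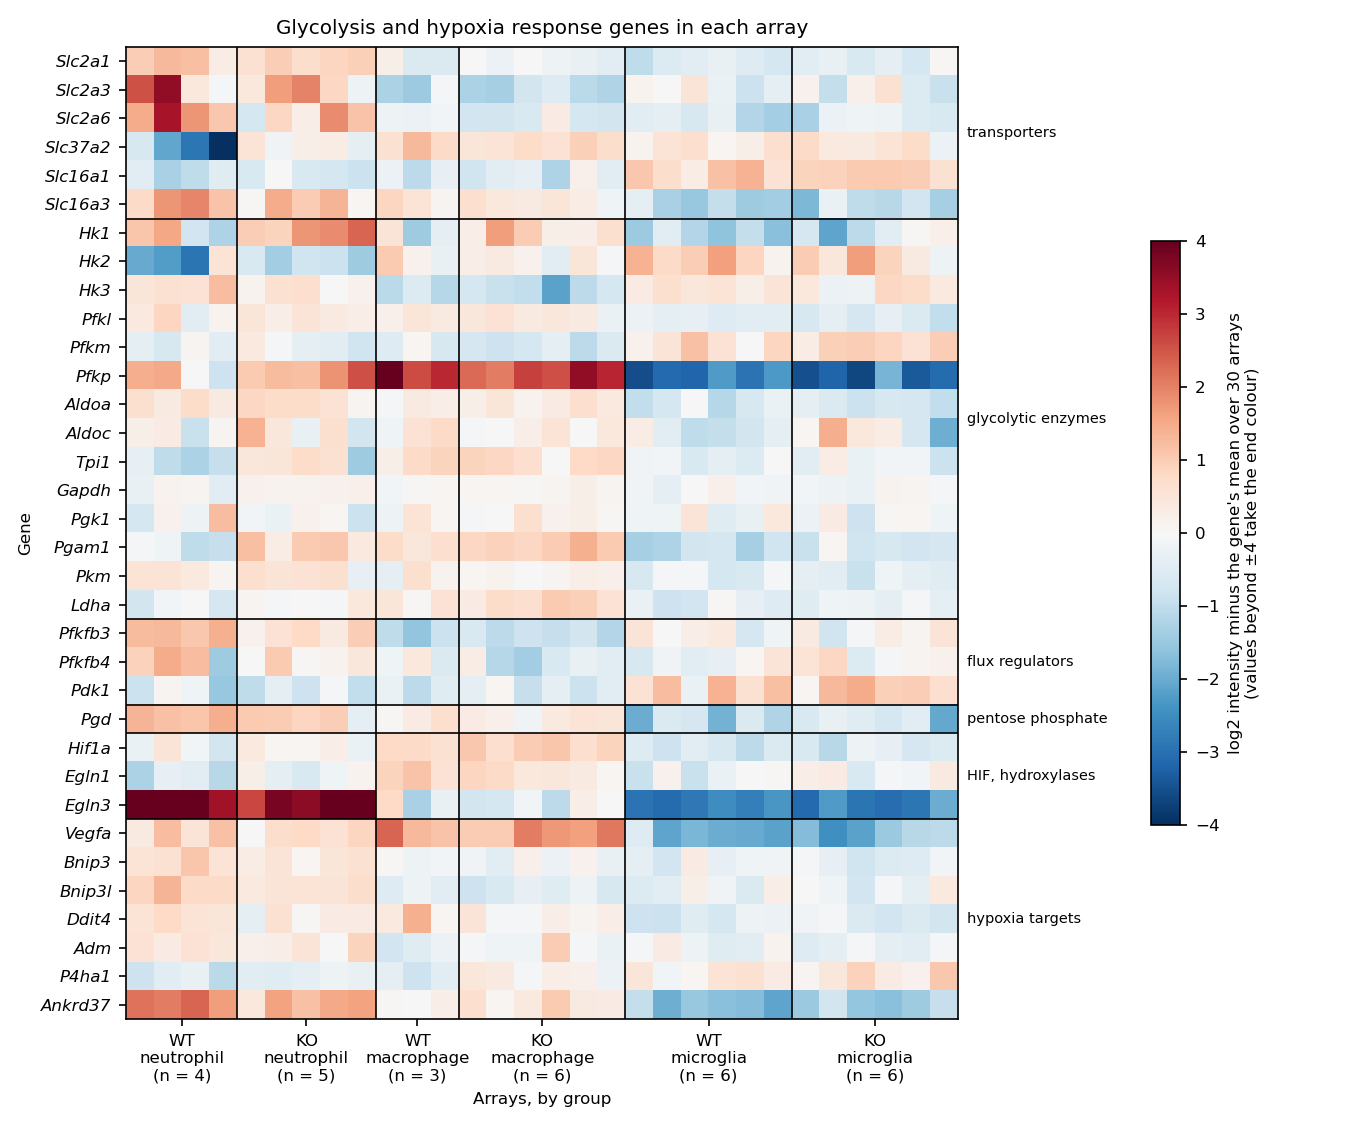
Log2 intensity of the 34 genes (rows, ordered by role) on the 30 arrays (columns, ordered by group), each gene drawn as its difference from its own mean over all arrays, with differences beyond 4 log2 units drawn in the end colours. Egln3 and Ankrd37 are high in the neutrophil columns, Pfkp and Vegfa are low in the microglia columns, and Slc37a2 is low in the WT neutrophil columns alone.

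More of these genes passed between cell types than between genotypes. Taking the 34 genes one by one in WT cells, the highest group mean was in neutrophils for 16, in macrophages for 13 and in microglia for 5, and the lowest was in microglia for 20, in neutrophils for 8 and in macrophages for 6. In KO cells the highest mean was in neutrophils for 19, in macrophages for 9 and in microglia for 6, and the lowest was again in microglia for 20. The plot of all 34 genes by array shows this as blocks of colour that follow the cell type. The median SD of a gene over the arrays of a group was 0.45 in WT neutrophils, where 6 genes had an SD above 1, and 0.27 to 0.40 in the other groups, where 2 group values in all exceeded 1. By the mean over all arrays, the median transcript cluster had a log2 intensity of 6.69, and Adm alone lay below that in all 6 groups. In at least 1 group 7 genes did, namely Slc2a3, Pfkm, Pfkp, Pfkfb4, Egln3, Ddit4 and Adm.

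Each difference below is on the log2 scale with its standard error (SE), and a gene is said to have passed where limma, fitted to the 30 arrays, gave a p under 0.05 after Benjamini-Hochberg adjustment over all 22103 clusters. In WT neutrophils against WT microglia 25 of the 34 genes passed, 19 higher and 6 lower, where 54.3% of all clusters passed, 22% higher and 32.3% lower. The median difference was 0.67 over the 34 genes and -0.06 over all clusters. In WT macrophages against WT microglia 20 passed, 14 higher and 6 lower, where 37.5% of all clusters passed, 9.62% higher and 27.9% lower. The medians were 0.52 and -0.25. In WT neutrophils against WT macrophages 20 passed, 12 higher and 8 lower, where 51.6% of all clusters passed, 29.6% higher and 22% lower, so the share of the list was close to that of the array. The 3 comparisons share arrays in pairs, and their values are therefore given side by side.

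KO cells gave counts of the same kind, with group means taken from other arrays than in the WT comparisons. The spread of each cluster was estimated from all arrays together in the same fit, so the WT and KO counts are not independent. In KO neutrophils against KO microglia 24 genes passed, 19 higher and 5 lower, where 45% of all clusters passed, 13% higher and 32% lower. In KO macrophages against KO microglia 20 passed, 15 higher and 5 lower, where 43.3% passed, 11.8% higher and 31.4% lower. In KO neutrophils against KO macrophages 16 passed, 9 higher and 7 lower, where 31.7% passed, 15.9% higher and 15.8% lower. Of the genes higher in neutrophils than in microglia, 18 were shared by the genotypes, which is 94.7% of the 19 in WT and 94.7% of the 19 in KO. Of the genes higher in macrophages than in microglia, 13 were shared, 92.9% of the 14 in WT and 86.7% of the 15 in KO. Of those higher in neutrophils than in macrophages, 9 were shared, 75.0% of the 12 in WT and all of the 9 in KO. No gene passed in opposite directions in the 2 genotypes. The share of all clusters that passed in both genotypes was not computed, so this sharing is not shown to be particular to the list.

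The splits move with the scaling of the arrays. The deposited arrays differ in their medians, with a median intensity of 83.7 to 91.1 in macrophages, 89.3 to 108 in neutrophils and 107 to 120 in microglia, and centring every array on its median shifted all WT differences by 0.15 for neutrophils against microglia, 0.40 for macrophages against microglia and -0.26 for neutrophils against macrophages. The shifts in KO cells were 0.27, 0.36 and -0.09. The share of passing clusters that were higher in WT macrophages than in WT microglia went from 25.7% as deposited to 49.7% after quantile normalization and 66.5% after centring, and the members then passed as 15 higher and 5 lower, and as 19 higher and 4 lower. For WT neutrophils against WT microglia the share was 40.6%, 51.6% and 51.6%, and the members passed as 23 and 5, and as 20 and 6. For WT neutrophils against WT macrophages it was 57.4%, 51.4% and 38.7%, and the members passed as 15 and 7, and as 10 and 10. In KO cells the share was 28.8%, 49.1% and 55% for neutrophils against microglia, 27.4%, 50.8% and 65.5% for macrophages against microglia, and 50.1%, 49.7% and 38.6% for neutrophils against macrophages. The members there passed as 22 and 5 under both scalings, as 17 and 5 or 21 and 5, and as 10 and 1 or 8 and 7. No gene of the list that passed as deposited changed its sign under either scaling.

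**Figure D2:**
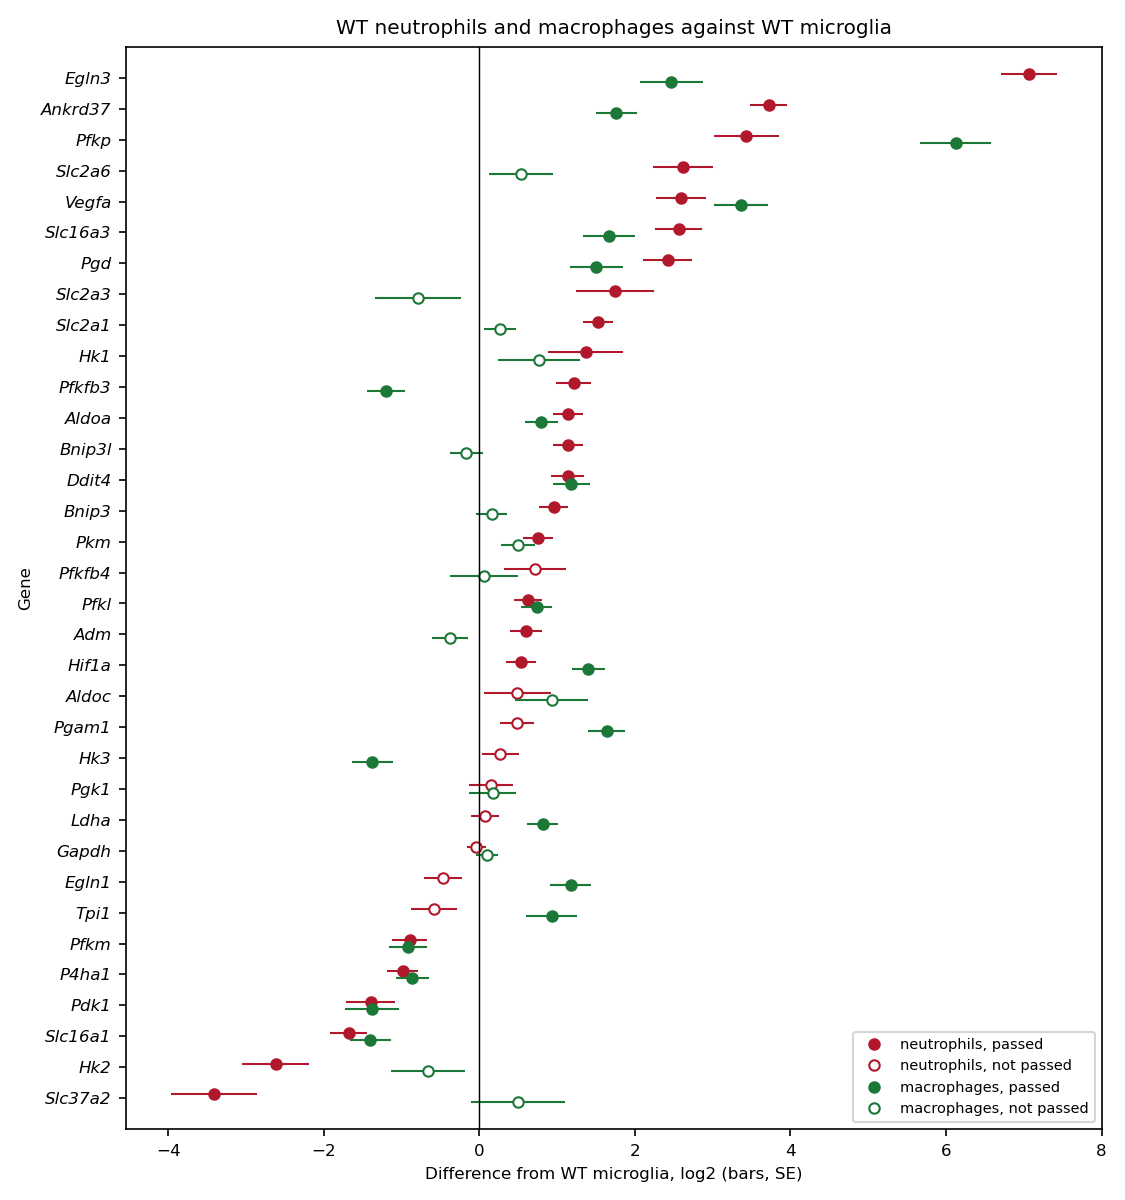
Difference in log2 intensity of each of the 34 genes between WT neutrophils and WT microglia and between WT macrophages and WT microglia, with the SE from the limma fit as bars and filled points for an adjusted p under 0.05. Egln3 stands farthest to the right in neutrophils at 7.07 and Pfkp in macrophages at 6.12, and Slc37a2 farthest to the left in neutrophils at -3.42.

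Promoter sequences of 4 genes that these differences turn on are shown here. They are Egln3 and Ankrd37, with the 2 largest excesses in WT neutrophils over WT microglia, Pfkp, with the largest excess in WT macrophages over WT microglia, and Slc16a1, which was lower in both cell types than in microglia. Each is the stretch of 250 bases that ends just before an annotated start of transcription in RefSeq (GRCm38.p6), read 5′ to 3′ on the strand of the gene. The stretches of Egln3 and Slc16a1 lie outside the outer bounds of their genes. Those of Ankrd37 and Pfkp lie inside, as these genes begin at 46000414 and 6649060. Capitals mark the HIF core ACGTG or GCGTG, or its complement on the other strand, CACGT or CACGC. The Egln3 stretch is chr12:54203875-54204124 on the minus strand, that of Ankrd37 is chr8:45999851-46000100 on the minus strand, that of Pfkp is chr13:6648772-6649021 on the minus strand and that of Slc16a1 is chr3:104638414-104638663 on the plus strand.
Egln3: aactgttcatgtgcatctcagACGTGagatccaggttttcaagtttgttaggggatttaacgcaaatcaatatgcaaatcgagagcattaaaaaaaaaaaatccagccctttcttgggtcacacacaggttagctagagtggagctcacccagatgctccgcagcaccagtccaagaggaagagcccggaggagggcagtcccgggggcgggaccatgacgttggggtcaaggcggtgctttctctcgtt
Ankrd37: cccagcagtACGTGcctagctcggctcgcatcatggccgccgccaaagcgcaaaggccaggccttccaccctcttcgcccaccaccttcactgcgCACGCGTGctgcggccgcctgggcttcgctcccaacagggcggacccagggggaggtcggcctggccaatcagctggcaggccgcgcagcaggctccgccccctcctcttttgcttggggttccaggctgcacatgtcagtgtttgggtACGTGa
Pfkp: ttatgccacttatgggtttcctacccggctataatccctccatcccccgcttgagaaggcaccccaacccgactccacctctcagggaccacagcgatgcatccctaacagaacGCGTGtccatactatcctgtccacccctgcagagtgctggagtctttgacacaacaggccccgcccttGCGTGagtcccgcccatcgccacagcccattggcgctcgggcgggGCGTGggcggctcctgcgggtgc
Slc16a1: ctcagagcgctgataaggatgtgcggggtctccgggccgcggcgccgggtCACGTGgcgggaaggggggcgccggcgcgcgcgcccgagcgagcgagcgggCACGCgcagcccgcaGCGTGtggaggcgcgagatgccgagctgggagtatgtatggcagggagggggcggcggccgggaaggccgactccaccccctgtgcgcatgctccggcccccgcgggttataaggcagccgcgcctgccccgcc
The Egln3 stretch holds 1 match, 229 bases before the start. That of Ankrd37 holds 4, at 241, 155, 152 and 6 bases before it, the middle pair overlapping. That of Pfkp holds 3, at 136, 68 and 23 bases, and that of Slc16a1 holds 4, at 200, 199, 149 and 134 bases, of which the first pair overlap as 1 palindrome. Slc16a1, lower in neutrophils and macrophages, thus holds as many matches as Ankrd37, which was higher, though their stretches differ in place relative to the gene bounds.

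Windows were found for 32 of the 34 genes, not for Slc2a3 or Bnip3l. With 50 bases after the start added, the core stood on either strand in 26 of the 32 first windows, or 81.2%, and in 11836 of 27025 first windows of all genes, or 43.8%. The members' windows were richer in G and C, with a median of 64.8% against 52.7%, and the core itself holds C and G. The windows of Slc37a2 and Tpi1, 2 genes that changed with genotype below, held no match. A match is a run of letters and no measurement of binding.

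Among the transporters, the glucose importers were highest in neutrophils. Slc2a1 encodes GLUT1, the basal glucose transporter of most cells. Its log2 level was 17.70, 18.02, 17.94 and 17.02 in WT neutrophils 1 to 4 and 16.95, 16.15 and 16.15 in WT macrophages 1 to 3, and in WT microglia its mean was 16.14 ± 0.24 (SD, n = 6). All 4 neutrophil arrays lay above all WT macrophage and microglia arrays. Slc2a1 was higher in WT neutrophils by 1.53 than in microglia (SE 0.19, adjusted p = 6.25e-08) and by 1.25 than in macrophages (SE 0.22, adjusted p = 4.03e-05). The KO differences were 1.21 (adjusted p = 1.75e-06) and 1.02 (adjusted p = 5.19e-05). Macrophages and microglia did not differ beyond their spread, with 0.27 (SE 0.21, adjusted p = 0.313) in WT.

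Slc2a3 encodes GLUT3, a transporter of high affinity known from neurons and white blood cells. Its log2 intensity was 7.79, 8.79, 5.68 and 5.20 in WT neutrophils and 5.69, 6.94, 7.24, 6.09 and 5.05 in KO neutrophils. It was 4.00, 3.82 and 5.18 in WT macrophages, and the lowest, median and highest array was 3.92, 4.12 and 4.75 in KO macrophages, 4.40, 5.11 and 5.78 in WT microglia and 4.31, 5.08 and 5.88 in KO microglia. WT neutrophils 1 and 2 were high, and WT neutrophils 3 and 4 lay inside the range of microglia. The gene was dim, with group means from 4.23 to 6.87. Slc2a3 was higher in neutrophils than in macrophages by 2.53 (SE 0.59, adjusted p = 0.000855) in WT and 1.97 (SE 0.47, adjusted p = 0.00192) in KO. In a limma fit to the compared arrays only, the WT value did not pass (adjusted p = 0.0525). The excess of 1.75 over microglia in WT (SE 0.50, adjusted p = 0.00416) no longer passed without WT neutrophil 2, at 1.11 (adjusted p = 0.0508). In KO the excess over microglia passed, but not without KO neutrophil 2, 3 or 4 or KO microglia 2, 5 or 6. Without KO microglia 2 and 4 together it did not pass either, at 1.21 (adjusted p = 0.0662). Without WT neutrophils 3 and 4 the WT excess was 3.96 over macrophages and 3.17 over microglia.

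Slc2a6 encodes GLUT6, a transporter of inner membranes that rises in activated macrophages. It was higher in WT neutrophils by 2.62 than in microglia (SE 0.38, adjusted p = 1.05e-06) and by 2.08 than in macrophages (SE 0.45, adjusted p = 0.000385). Lactate leaves glycolytic cells through MCT4, encoded by Slc16a3, which was higher than in microglia by 2.57 in WT neutrophils (SE 0.30, adjusted p = 2.73e-08) and by 1.67 in WT macrophages (SE 0.33, adjusted p = 0.000203). In KO cells these were 1.85 and 1.39, and both passed.

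Slc16a1 encodes MCT1, which carries lactate and ketone bodies in either direction, and it was highest in microglia, where Slc16a3 was lowest. Per array its level was 7.70, 6.86, 7.14 and 7.69 in WT neutrophils and 7.57, 8.16, 7.57, 7.46 and 7.29 in KO neutrophils. It was 7.93, 7.11 and 7.84 in WT macrophages, and the lowest, median and highest array was 6.94, 7.71 and 8.37 in KO macrophages, 8.47, 9.05 and 9.54 in WT microglia and 8.76, 9.12 and 9.21 in KO microglia. Every microglia array lay above every neutrophil and macrophage array. Against WT microglia Slc16a1 was at -1.68 in WT neutrophils (SE 0.24, adjusted p = 7.68e-07) and at -1.40 in WT macrophages (SE 0.26, adjusted p = 9.81e-05). In KO cells the differences were -1.47 (adjusted p = 3.63e-06) and -1.43 (adjusted p = 2.94e-06).

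Slc37a2, a sugar phosphate exchanger of the endoplasmic reticulum known from macrophages, was low in WT neutrophils alone. Its log2 level was 11.93, 10.51, 9.68 and 6.08 in WT neutrophils 1 to 4 and 13.12, 12.43, 12.81, 12.88 and 12.21 in KO neutrophils 1 to 5. It was 13.17, 13.88 and 13.34 in WT macrophages, and the lowest, median and highest array was 13.05, 13.20 and 13.54 in KO macrophages, 12.65, 12.97 and 13.25 in WT microglia and 12.34, 13.04 and 13.33 in KO microglia. The 4 WT neutrophil arrays covered a far wider range than any other group and overlapped none of them. In WT neutrophils Slc37a2 was at -3.42 against microglia (SE 0.55, adjusted p = 5.91e-06) and at -3.91 against macrophages (SE 0.66, adjusted p = 1.94e-05). In KO neutrophils the differences were -0.31 (adjusted p = 0.664) and -0.55 (adjusted p = 0.452). The WT differences were -2.26 against microglia without WT neutrophil 4, and -1.75 and -2.24 without WT neutrophils 3 and 4. With the level of broadly expressed clusters as a covariate they were 0.66 (adjusted p = 0.581) and 0.35 (adjusted p = 0.85), with the sign turned. The covariate is lower in neutrophils partly by the way its clusters were chosen, so the turned sign decides nothing.

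**Figure D3:**
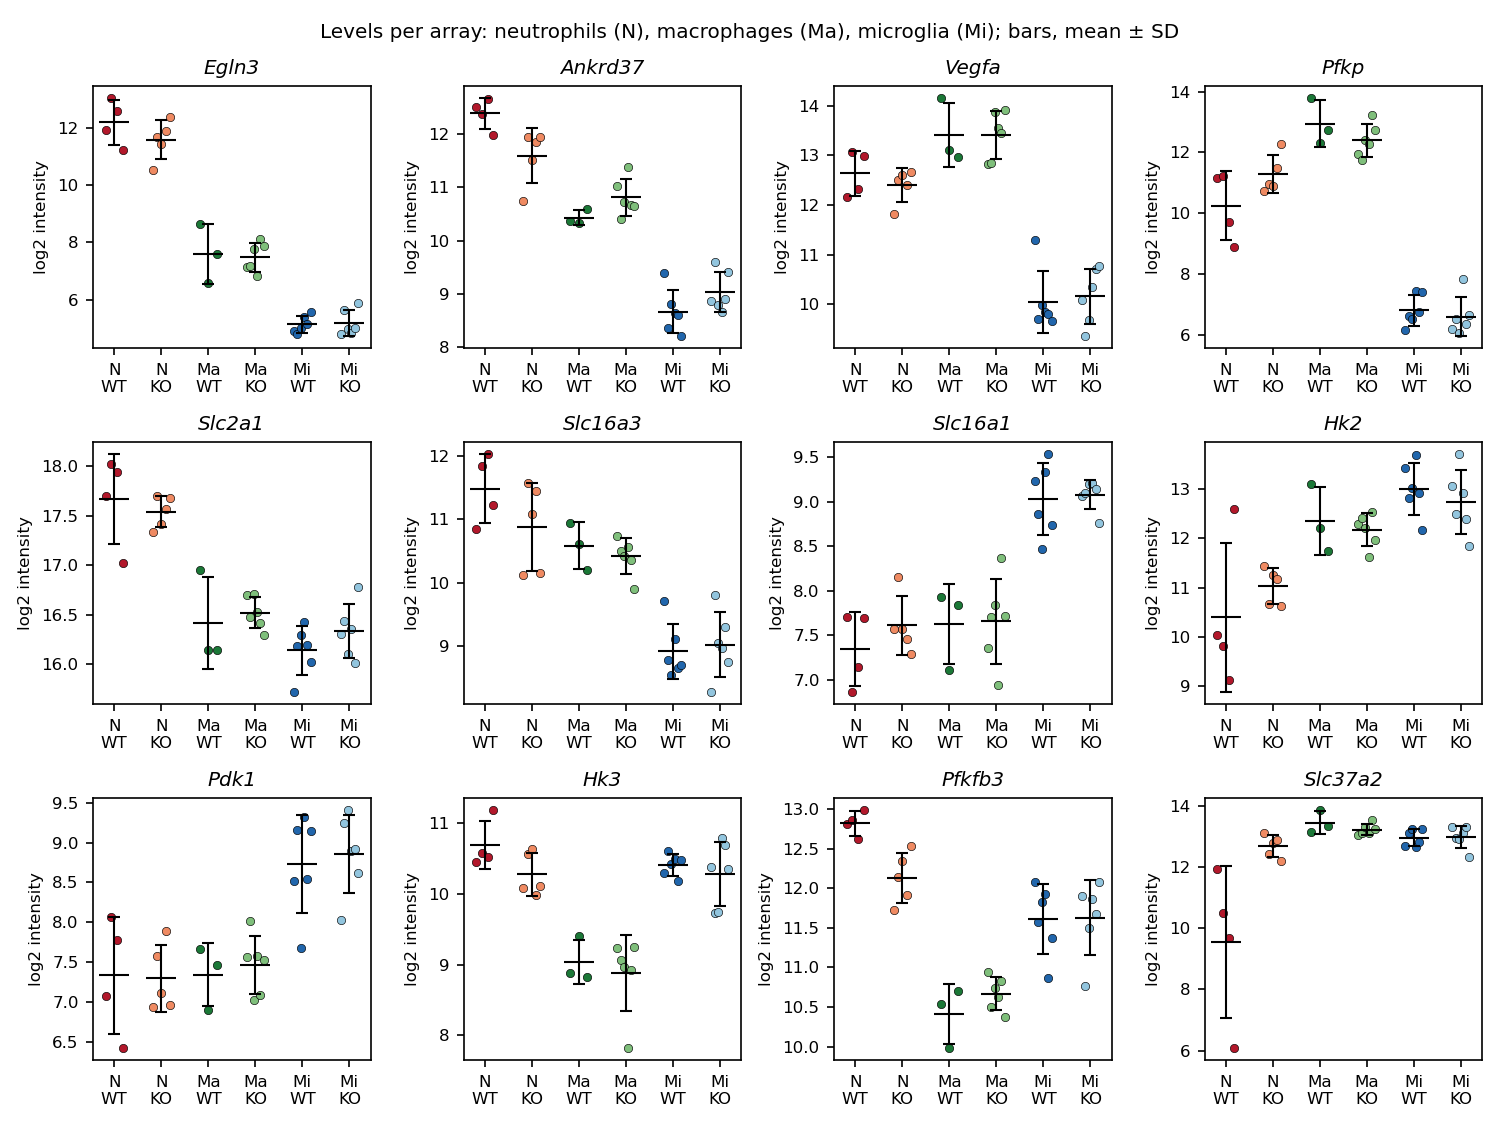
Log2 intensity of 12 genes on every array of the 6 groups, with the group mean and SD as bars. Egln3 falls in steps from neutrophils to macrophages to microglia, Pfkp is highest in macrophages, Slc16a1 is highest in microglia, and the WT neutrophil points of Slc37a2 spread from 6.08 to 11.93.

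The hexokinases, which trap glucose as glucose 6-phosphate, each had their own order of cell types. Hk1, the widely expressed form, was higher in neutrophils than in microglia by 1.37 in WT (SE 0.48, adjusted p = 0.0175) and 2.25 in KO (SE 0.45, adjusted p = 0.000159), and the WT value did not pass without WT neutrophil 1 or without WT neutrophil 2, and was 2.54 without WT neutrophils 3 and 4. Hk2, the form that HIF-1 and growth signals induce, was lower in neutrophils. On single arrays it read 10.04, 9.82, 9.12 and 12.60 in WT neutrophils and 11.44, 10.66, 11.26, 11.18 and 10.63 in KO neutrophils. It was 13.10, 12.21 and 11.74 in WT macrophages, and the lowest, median and highest array was 11.62, 12.25 and 12.54 in KO macrophages, 12.18, 12.97 and 13.70 in WT microglia and 11.84, 12.71 and 13.72 in KO microglia. WT neutrophil 4 lay within the range of the other cells and the other neutrophil arrays lay below them. Hk2 was at -2.62 against microglia (SE 0.43, adjusted p = 8.13e-06) and -1.96 against macrophages (SE 0.51, adjusted p = 0.00242) in WT, and at -1.71 (adjusted p = 0.00104) and -1.14 (adjusted p = 0.0324) in KO. The last of these did not pass after quantile normalization (-0.81, adjusted p = 0.154), or without KO neutrophil 2 or 5 or KO macrophage 1, 2 or 5.

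Hk3, the form typical of myeloid cells, was lowest in macrophages. Its log2 intensity was 10.45, 10.58, 10.53 and 11.19 in WT neutrophils, 10.09, 10.57, 10.64, 9.98 and 10.12 in KO neutrophils and 8.88, 9.40 and 8.83 in WT macrophages. The lowest, median and highest array was 7.82, 9.02 and 9.25 in KO macrophages, 10.18, 10.45 and 10.61 in WT microglia and 9.73, 10.36 and 10.79 in KO microglia. No macrophage array reached the lowest array of the other cells. Hk3 was at -1.38 in WT macrophages (SE 0.26, adjusted p = 0.000126) and -1.41 in KO macrophages (adjusted p = 3.92e-06) against microglia, while neutrophils and microglia differed by 0.27 in WT (adjusted p = 0.35).

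Phosphofructokinase commits the sugar to glycolysis, and its 3 subunit genes differed in their pattern. Pfkp, the platelet subunit, differed most. Its log2 level was 11.14, 11.22, 9.72 and 8.88 in WT neutrophils and 10.74, 10.96, 10.90, 11.49 and 12.28 in KO neutrophils. It was 13.79, 12.29 and 12.72 in WT macrophages, and the lowest, median and highest array was 11.75, 12.35 and 13.24 in KO macrophages, 6.16, 6.67 and 7.43 in WT microglia and 6.05, 6.42 and 7.83 in KO microglia. Microglia lay below every other array in both genotypes, and macrophages lay above every WT neutrophil array. Against WT microglia Pfkp was higher by 6.12 in WT macrophages (SE 0.46, adjusted p = 6.93e-12) and by 3.43 in WT neutrophils (SE 0.42, adjusted p = 4.82e-08). Its mean in WT microglia, 6.81 ± 0.51 (n = 6), was near that of the median cluster, 6.69. It was not shown to lie above background, as the values carry no detection call, so no fold over microglia is given. The KO differences were 5.80 (adjusted p = 1.33e-13) and 4.68 (adjusted p = 5.38e-11). Neutrophils against macrophages gave -2.69 in WT (SE 0.49, adjusted p = 6.05e-05) and -1.12 in KO (SE 0.39, adjusted p = 0.0284), and the KO value did not pass without KO neutrophil 1, 2 or 3 or KO macrophage 5 or 6, or after quantile normalization (-0.80, adjusted p = 0.116). The WT value was -1.75 without WT neutrophils 3 and 4.

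The liver subunit gene Pfkl was higher than in microglia by 0.62 in WT neutrophils (adjusted p = 0.00409, or 1.01 without WT neutrophils 3 and 4) and 0.74 in WT macrophages (adjusted p = 0.00366). The muscle subunit gene Pfkm was at -0.89 (adjusted p = 0.00122) and -0.91 (adjusted p = 0.004), so the 3 subunit genes did not share a direction, and the macrophage value of Pfkm did not pass under either scaling.

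The enzymes of the lower pathway differed less. Aldoa, the main aldolase, was higher than in WT microglia by 1.14 in WT neutrophils (SE 0.19, adjusted p = 7.61e-06) and by 0.80 in WT macrophages (SE 0.21, adjusted p = 0.00293). Pkm, pyruvate kinase, was higher by 0.75 in WT neutrophils (adjusted p = 0.00182), and its 0.50 in WT macrophages did not pass (adjusted p = 0.0688). Tpi1, triose phosphate isomerase, Pgam1, phosphoglycerate mutase, and Ldha, the lactate dehydrogenase subunit that favours lactate, were, of the 3 WT cell types, highest in macrophages, where they exceeded WT microglia by 0.93 (adjusted p = 0.0244), 1.64 (adjusted p = 2.86e-06) and 0.82 (adjusted p = 0.0016). The WT macrophage excess of Tpi1 did not pass without WT macrophage 2 or without WT macrophage 3. Against WT macrophages, WT neutrophils were at -1.51 for Tpi1 (adjusted p = 0.0008), -1.16 for Pgam1 (adjusted p = 0.00054, or -0.73 without WT neutrophils 3 and 4) and -0.74 for Ldha (adjusted p = 0.00489). The Ldha value did not pass after quantile normalization, at -0.20 (adjusted p = 0.479). Gapdh, Pgk1 and Aldoc, with the regulator gene Pfkfb4, passed in none of the 6 cell type comparisons, and the group means of Gapdh ran from 15.42 ± 0.29 (n = 4) in WT neutrophils to 15.72 ± 0.03 (n = 5) in KO neutrophils.

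Of the 3 regulators of flux, Pfkfb3 alone passed between neutrophils and macrophages, in WT and in KO. It makes fructose 2,6-bisphosphate, the strongest activator of phosphofructokinase. Array by array its log2 level was 12.81, 12.86, 12.62 and 12.99 in WT neutrophils, 11.73, 12.14, 12.34, 11.92 and 12.53 in KO neutrophils and 10.54, 9.98 and 10.70 in WT macrophages. The lowest, median and highest array was 10.37, 10.69 and 10.94 in KO macrophages, 10.87, 11.70 and 12.08 in WT microglia and 10.76, 11.76 and 12.08 in KO microglia. All WT neutrophil arrays lay above all others, and all WT macrophage arrays lay below all microglia arrays. WT neutrophils exceeded WT macrophages by 2.41 (SE 0.27, adjusted p = 3.72e-08) and WT microglia by 1.21 (SE 0.23, adjusted p = 4.53e-05), and WT macrophages were at -1.20 against WT microglia (SE 0.25, adjusted p = 0.000327). In KO cells the same differences were 1.46 (adjusted p = 5.06e-06), 0.50 (adjusted p = 0.0545) and -0.96 (adjusted p = 0.000316).

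Pdk1, a HIF-1 target, encodes a kinase that inhibits pyruvate dehydrogenase. On single arrays it read 7.08, 8.06, 7.78 and 6.42 in WT neutrophils, 6.93, 7.58, 7.11, 7.89 and 6.96 in KO neutrophils and 7.67, 6.90 and 7.46 in WT macrophages. The lowest, median and highest array was 7.03, 7.55 and 8.02 in KO macrophages, 7.68, 8.85 and 9.32 in WT microglia and 8.03, 8.91 and 9.41 in KO microglia. Microglia were high in both genotypes, with some overlap with WT neutrophils 2 and 3. Against WT microglia Pdk1 was at -1.40 in WT neutrophils (SE 0.32, adjusted p = 0.00046) and -1.38 in WT macrophages (SE 0.35, adjusted p = 0.00227). In the pentose phosphate pathway, which makes the NADPH that the neutrophil oxidase burns, Pgd encodes the second dehydrogenase, and it was higher than in WT microglia by 2.42 in WT neutrophils (SE 0.31, adjusted p = 1.55e-07) and by 1.50 in WT macrophages (SE 0.34, adjusted p = 0.000959).

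The oxygen-sensing genes gave the largest difference on the list. Egln3 encodes PHD3, the prolyl hydroxylase that HIF-1 itself induces, and PHD3 is known to support the survival of neutrophils in low oxygen. Its log2 level was 11.92, 13.06, 12.59 and 11.23 in WT neutrophils and 10.55, 11.69, 11.45, 11.90 and 12.39 in KO neutrophils. It was 8.66, 6.57 and 7.59 in WT macrophages, and the lowest, median and highest array was 6.82, 7.47 and 8.13 in KO macrophages, 4.79, 5.08 and 5.55 in WT microglia and 4.78, 4.98 and 5.88 in KO microglia. The 3 cell types did not overlap in either genotype. WT neutrophils exceeded WT microglia by 7.07 (SE 0.37, adjusted p = 1.13e-15), and WT macrophages by 4.60, or 24.2-fold (SE 0.43, adjusted p = 1.83e-09). WT macrophages exceeded WT microglia by 2.47 (SE 0.40, adjusted p = 1.44e-05). The mean of Egln3 in WT microglia, 5.13 ± 0.29 (n = 6), was dim and not shown to lie above background, as the values used here carry no detection call, so no fold over microglia is given. In KO cells the 3 differences were 6.42 (adjusted p = 3.41e-15), 4.11 (adjusted p = 1.95e-10) and 2.30 (adjusted p = 1.24e-06).

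Hif1a and Egln1, which encodes PHD2, the main oxygen sensor, did not follow Egln3. Hif1a was highest in macrophages, at 15.13 ± 0.11 (n = 3) in WT and 15.32 ± 0.19 (n = 6) in KO, against 13.73 ± 0.22 (n = 6) and 13.84 ± 0.32 (n = 6) in microglia. WT neutrophils lay between them at 14.27 ± 0.52 (n = 4). WT macrophages exceeded WT microglia by 1.40 (SE 0.21, adjusted p = 3.64e-06), and WT neutrophils were at -0.87 against WT macrophages (SE 0.22, adjusted p = 0.00216), or at -0.59 (adjusted p = 0.0606) without WT neutrophils 3 and 4. The neutrophil excess of 0.54 over microglia (SE 0.19, adjusted p = 0.0184) did not pass without WT neutrophil 2, at 0.31 (adjusted p = 0.158), and was 0.81 without WT neutrophils 3 and 4. Egln1 was higher in WT macrophages than in WT microglia by 1.18 (adjusted p = 0.000807) and lower in WT neutrophils than in WT macrophages, at -1.65 (adjusted p = 3.1e-05).

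Of the 7 hypoxia targets, 6 were higher and 1 was lower in WT neutrophils than in WT microglia, and 3 were higher and 1 was lower in WT macrophages. Over all clusters 22% were higher and 32.3% lower in the first comparison, and 9.62% and 27.9% in the second. Ankrd37 encodes an ankyrin repeat protein that is a direct HIF-1 target. Per array its level was 12.52, 12.38, 12.67 and 11.99 in WT neutrophils, 10.74, 11.94, 11.51, 11.85 and 11.95 in KO neutrophils and 10.38, 10.33 and 10.59 in WT macrophages. The lowest, median and highest array was 10.40, 10.70 and 11.39 in KO macrophages, 8.21, 8.63 and 9.39 in WT microglia and 8.67, 8.88 and 9.60 in KO microglia. The 3 WT cell types did not overlap, and KO neutrophils overlapped KO macrophages. WT neutrophils exceeded WT microglia by 3.72 (SE 0.24, adjusted p = 1.67e-13) and WT macrophages by 1.96 (SE 0.28, adjusted p = 2.61e-06), and the KO differences were 2.56 (adjusted p = 1.56e-10) and 0.79 (adjusted p = 0.00833).

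Vegfa, the angiogenic growth factor, had its highest mean in macrophages. Array by array its log2 level was 12.17, 13.06, 12.33 and 12.99 in WT neutrophils, 11.82, 12.51, 12.60, 12.40 and 12.67 in KO neutrophils and 14.16, 13.12 and 12.96 in WT macrophages. The lowest, median and highest array was 12.82, 13.51 and 13.92 in KO macrophages, 9.67, 9.82 and 11.29 in WT microglia and 9.36, 10.22 and 10.77 in KO microglia. No microglia array reached any other array. Against WT microglia Vegfa was higher by 3.36 in WT macrophages (SE 0.35, adjusted p = 6.7e-09) and by 2.59 in WT neutrophils (SE 0.32, adjusted p = 6.76e-08). Neutrophils against macrophages gave -0.77 in WT (adjusted p = 0.0868) and -1.01 in KO (adjusted p = 0.0108), and the KO value did not pass after quantile normalization (-0.73, adjusted p = 0.0951).

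Bnip3 and Bnip3l encode receptors for the removal of mitochondria. They were higher in WT neutrophils than in WT microglia by 0.95 (adjusted p = 6.28e-05) and 1.14 (adjusted p = 1.2e-05), and their differences of 0.16 and -0.17 between WT macrophages and WT microglia did not pass (adjusted p = 0.568 and 0.556). Ddit4, an inhibitor of mTORC1, exceeded WT microglia by 1.13 (adjusted p = 5.66e-05) in WT neutrophils and 1.18 (adjusted p = 0.000229) in WT macrophages, the latter 0.79 without WT macrophage 2. It was dim, with group means from 5.53 to 6.71. P4ha1, a collagen prolyl hydroxylase subunit, was lower than in WT microglia, at -0.99 in WT neutrophils (adjusted p = 8.73e-05) and -0.86 in WT macrophages (adjusted p = 0.00197). The first did not pass after quantile normalization (-0.41, adjusted p = 0.0916), nor the second with each array centred on its median (-0.46, adjusted p = 0.103). The targets thus differed in which cell type held most of each. Adm, the peptide adrenomedullin, was dim throughout, with group means from 4.23 to 5.21, and was higher by 0.60 in WT neutrophils than in WT microglia (adjusted p = 0.0153), or by 0.58 (adjusted p = 0.0845) without WT neutrophils 3 and 4.

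The comparison of genotypes asks what the loss of TREM1 does to these genes in each cell type after stroke. In neutrophils, Slc37a2, Pgam1, Tpi1 and Hk1 rose in KO cells and Slc2a6, Ankrd37 and Pfkfb3 fell. These 7 of the 34 genes are 20.6%, and 19.9% of all clusters passed in this comparison, 10.7% higher and 9.14% lower, so the list changed about as often as the array as a whole. The median difference was -0.01 over the 34 genes and -0.13 over all clusters. By role, 1 transporter rose and 1 fell of 6, 3 glycolytic enzymes rose and none fell of 14, 1 regulator of flux fell of 3, and 1 hypoxia target fell of 7. Of the 14 enzymes, 12 had a positive difference, with a median of 0.32. Of the 7 hypoxia targets, 6 had a negative one, with a median of -0.32.

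The mean level of Slc37a2 was 9.55 ± 2.49 (SD, n = 4) in WT and 12.69 ± 0.36 (n = 5) in KO neutrophils, and every KO array given above lay above every WT array. It rose by 3.14, or 8.83-fold (SE 0.58, adjusted p = 0.000336), and by 1.98 without WT neutrophil 4. Pgam1 was 13.93, 13.85, 13.00 and 13.09 in WT neutrophils and 15.20, 14.29, 15.04, 15.10 and 14.41 in KO neutrophils. Its groups did not overlap either, and it rose by 1.34, or 2.53-fold (SE 0.23, adjusted p = 0.00014). Neither call was lost when any 1 array was left out of the fit to all cell types. Tpi1 was 13.69, 13.00, 12.75 and 13.07 in WT and 14.47, 14.50, 14.74, 14.63 and 12.58 in KO. It rose by 1.06 (SE 0.31, adjusted p = 0.0161), with KO neutrophil 5 below the WT arrays, and the call ended without WT neutrophil 3.

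Hk1 was 9.12, 9.55, 7.23 and 6.76 in WT neutrophils and 9.0, 8.91, 9.78, 9.89 and 10.35 in KO neutrophils. WT neutrophils 3 and 4 were low and the other WT arrays lay among the KO arrays. Hk1 rose by 1.42 (SE 0.50, adjusted p = 0.0437), and the call ended without WT neutrophil 3 or 4 or without KO neutrophil 3, 4 or 5, and after quantile normalization (1.44, adjusted p = 0.0506). Slc2a6 was 9.90, 11.73, 10.18 and 9.49 in WT and 7.72, 9.25, 8.69, 10.32 and 9.55 in KO. It fell by 1.22 (SE 0.40, adjusted p = 0.0284) with some overlap, and the call ended without KO neutrophil 1 or 3 or without WT neutrophil 2, where the difference was -0.76. Ankrd37 fell by 0.79 (SE 0.25, adjusted p = 0.025) and Pfkfb3 fell by 0.69 (SE 0.24, adjusted p = 0.0379), and in the array values given above neither gene's groups overlapped. The Ankrd37 call ended without WT neutrophil 3 or KO neutrophil 1, and the Pfkfb3 call without WT neutrophil 1, 2 or 4 or KO neutrophil 1, 2 or 4. With Pgd and Bnip3l, 6 of the 34 genes had groups that did not overlap, where 11.4% of all clusters had.

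Several genes that separated the cell types did not pass between the genotypes in neutrophils. Egln3 differed by -0.61 (adjusted p = 0.261), Vegfa by -0.24 (adjusted p = 0.639), Slc2a1 by -0.13 (adjusted p = 0.674) and Hif1a by 0.25 (adjusted p = 0.372). Pfkp, at 1.03, missed the threshold (adjusted p = 0.0889), as did Ldha at 0.44 (adjusted p = 0.0902), Egln1 at 0.61 (adjusted p = 0.0813) and Gapdh at 0.29 (adjusted p = 0.109).

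**Figure D4:**
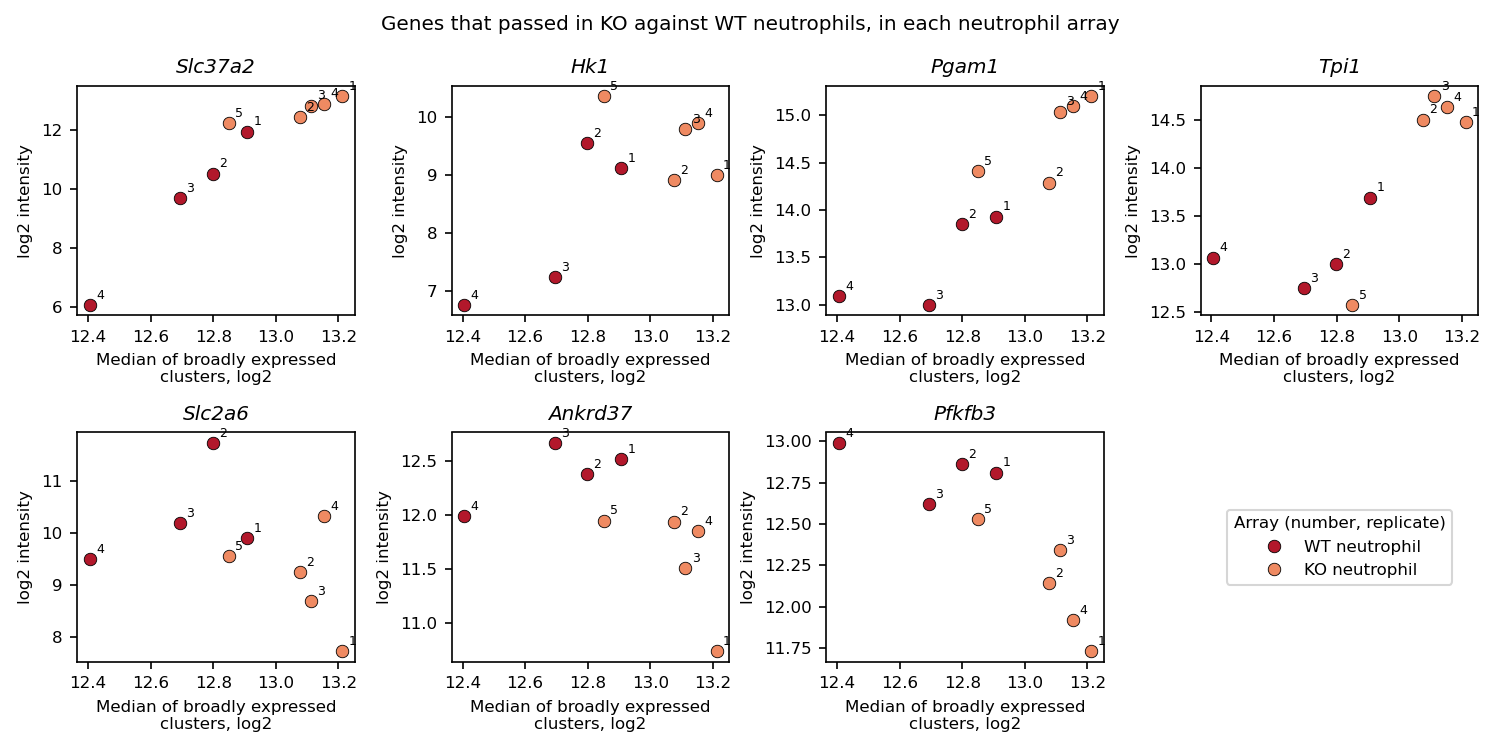
Log2 intensity of the 7 genes that passed between KO and WT neutrophils on each of the 9 neutrophil arrays, against the median log2 level of 2006 broadly expressed clusters on the same array. Slc37a2 runs from 6.08 on the WT array with the lowest broad level, 12.41, to 13.12 on the KO array with the highest, 13.21.

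Other measures of the neutrophil arrays moved with genotype. The broadly expressed level was 12.41 to 12.91 in WT and 12.85 to 13.21 in KO, as the plot of the 7 genes against it shows. Among cell type markers, 2 of 9 neutrophil markers fell in KO, Mmp8 by 2.10 and Retnlg by 1.98. None of the 9 had a positive difference, and their median was -0.76. Of 10 monocyte and macrophage markers 3 rose, Ccr2 by 2.08, Ms4a7 by 2.08 and Ms4a4c by 1.14. The other 7 of that list did not pass, among them Chil3 at -1.52 (adjusted p = 0.0527, with groups that did not overlap), Ly6c2 at -0.69 and Vcan at -0.68. Of 9 microglia markers 1 fell, P2ry12 by 0.97, and 6 had a positive difference, none of which passed, with Fcrls at 1.77 (adjusted p = 0.0629) and Olfml3 at 0.85 (adjusted p = 0.101). Of 6 fibroblast and cartilage markers 4 fell, Dcn by 2.95, Lum by 2.74, Acan by 1.76 and Col1a2 by 1.04. The summed level ran from 19.82 to 20.42 in WT and 18.87 to 19.75 in KO for the neutrophil markers, from 17.04 to 17.57 and 17.20 to 18.03 for those of monocytes and macrophages, from 14.51 to 17.02 and 13.27 to 15.69 for those of microglia, and from 12.61 to 17.68 and 10.60 to 13.36 for those of fibroblasts and cartilage. WT neutrophil 4 set the top for microglia and fibroblast markers, 17.02 and 17.68, where WT neutrophils 1 to 3 reached at most 15.66 and 14.35. None of the endothelial, astrocyte, neuron, oligodendrocyte, lymphocyte or erythroid markers passed. The part of the marker differences in the 7 calls was not tested.

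Without WT neutrophils 3 and 4, a choice made after the data were seen, 4 of the 34 genes passed, 2 higher and 2 lower, where 6.84% of all clusters passed. Slc37a2 rose by 1.47 (adjusted p = 0.00315), Pgam1 rose by 0.92 (adjusted p = 0.0276) and Slc2a6 fell by 1.71 (adjusted p = 0.0256). The fourth was Slc2a3, which fell by 2.09 (adjusted p = 0.00819), against -0.66 with all arrays. The Tpi1 difference was then 0.84 (adjusted p = 0.216), that of Hk1 0.25 (adjusted p = 0.861), that of Ankrd37 -0.85 (adjusted p = 0.0985) and that of Pfkfb3 -0.71 (adjusted p = 0.172). The size of the Ankrd37 and Pfkfb3 differences thus stayed near that of the fit to all arrays, while those of Slc37a2 and Hk1 shrank. With the broadly expressed level as a covariate none of the 34 passed, where 2.16% of all clusters did, and the differences were 0.83 for Slc37a2 (adjusted p = 0.567), 0.79 for Pgam1 (adjusted p = 0.169), 0.89 for Hk1 (adjusted p = 0.67) and 0.21 for Tpi1 (adjusted p = 0.898). Those of the genes that had fallen were -1.38 for Slc2a6 (adjusted p = 0.235), -0.64 for Ankrd37 (adjusted p = 0.448) and -0.15 for Pfkfb3 (adjusted p = 0.91). In a fit to the 9 neutrophil arrays only, Pgam1 alone passed (1.34, adjusted p = 0.0311). Centring moved all differences by 0.12 and the share of passing clusters that were higher from 54% to 71.6% (49.8% after quantile normalization). Then 7 of the 34 rose and none fell, with Gapdh, Ldha and Egln1 past the threshold and Slc2a6 (-1.10, adjusted p = 0.0573), Ankrd37 (-0.67, adjusted p = 0.0539) and Pfkfb3 (-0.57, adjusted p = 0.0842) not.

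In macrophages no gene of the 34 passed between the genotypes, and 0.00452% of all clusters did. The limma test gave an unadjusted p under 0.05 for 3 of the 34, and no alternative setting called any. P4ha1, with the smallest p, was 10.85, 10.38 and 10.78 in WT macrophages and 10.99, 11.45 and 11.67 as the lowest, median and highest of the 6 KO arrays. Its groups did not overlap, which held for 2 of the 34 genes (Pgam1 is the other) and 2.92% of all clusters. The P4ha1 difference was 0.72 (SE 0.21, adjusted p = 0.897). Adm was 3.97, 4.24 and 4.50 in WT and 4.48, 4.61 and 5.74 in KO, a difference of 0.54 (SE 0.23, adjusted p = 0.998). The 95% intervals of the 34 differences reached from -1.47 to 2.19, so a change of 1 log2 unit could not be told from none for some of these genes. The summed level of the 6 fibroblast and cartilage markers was 9.15 to 10.85 in WT and 12.10 to 13.43 in KO macrophages. All 6 had a positive difference, with a median of 0.77, and none passed. The part of these markers in the differences above was not tested.

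In microglia no gene of the 34 passed and 0% of all clusters did, with an unadjusted p under 0.05 in the limma test for 1 of the 34 and no call in any alternative setting. Pgam1 was 12.68, 12.99 and 13.31 as the lowest, median and highest of the 6 WT arrays and 13.13, 13.29 and 14.10 in KO. Its groups overlapped, and the difference was 0.41 (SE 0.20, adjusted p = 1). Ankrd37, with array values given above, differed by 0.37 (SE 0.21, adjusted p = 1). In all, 33 of the 34 differences were under 0.5 in size, and the 95% intervals reached from -1.07 to 1.42. No gene had groups that did not overlap, against 0.109% of all clusters. KO microglia 2, the array highest in Pgam1, had a mean log2 level of 9.02 over the 9 neutrophil markers. That mean was at most 7.33 in the other KO microglia arrays and 6.28 to 7.13 in WT microglia. Of the 9 markers 8 had a positive difference, with a median of 0.61, and none passed. The part of these markers in the Pgam1 difference was not tested.

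**Figure D5:**
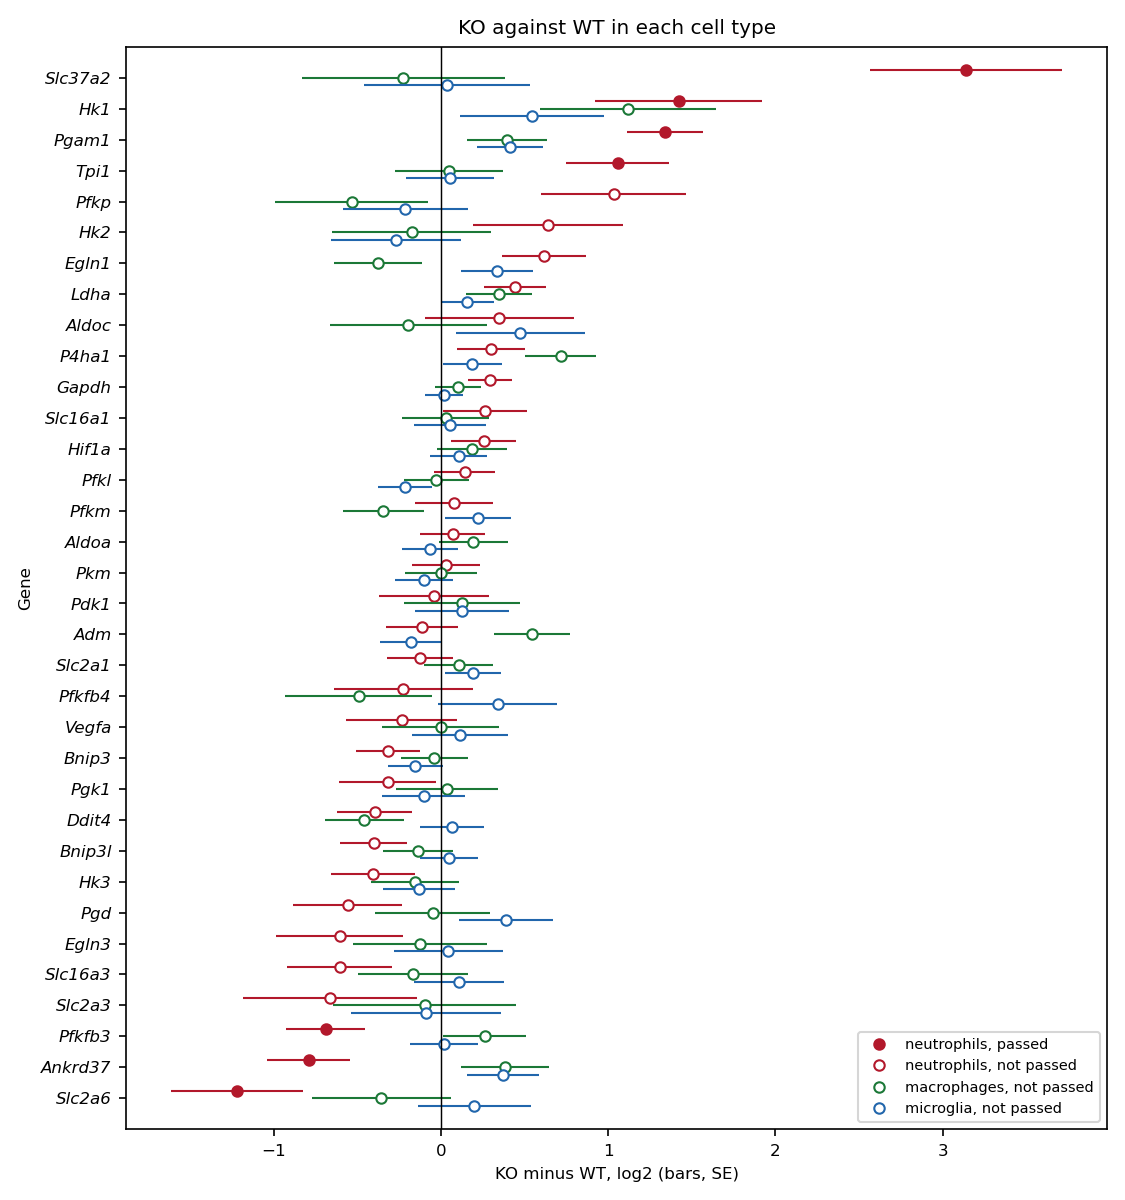
Difference in log2 intensity between KO and WT for each of the 34 genes in neutrophils, macrophages and microglia, with the SE from the limma fit as bars. Slc37a2 at 3.14 and Slc2a6 at -1.22 are the ends of the neutrophil values, and the microglia values lie between -0.27 and 0.54.

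The change with genotype differed between cell types for Slc37a2 and Ankrd37. The Slc37a2 change in neutrophils exceeded that in macrophages by 3.37 (SE 0.84, adjusted p = 0.0158) and that in microglia by 3.11 (SE 0.76, adjusted p = 0.0136), its own values being -0.23 in macrophages and 0.04 in microglia. For Ankrd37 the differences were -1.17 (SE 0.36, adjusted p = 0.0472) and -1.16 (SE 0.33, adjusted p = 0.0331), with 0.38 in macrophages and 0.37 in microglia. These 2 of the 34 genes, 1 in each direction, stand beside 6.87% of all clusters for neutrophils against macrophages (4.36% higher and 2.51% lower) and 5.79% for neutrophils against microglia (4.06% and 1.73%), and both tests use the same neutrophil arrays. The Ankrd37 calls were fragile. Against macrophages the call was lost for 14 of the 18 arrays left out in turn, with adjusted p from 0.0504 to 0.0951, and held only without WT neutrophil 4, KO neutrophil 2 or 5 or KO macrophage 2. Against microglia it was lost without WT neutrophil 3, KO neutrophil 1 or 3, WT microglia 2 or 6 or KO microglia 2 or 6, with adjusted p from 0.0509 to 0.0807. No single array ended either call of Slc37a2, but the values were 2.21 and 1.95 without WT neutrophil 4 and 1.70 and 1.44 without WT neutrophils 3 and 4. With the broadly expressed level as a covariate neither gene passed in either test. The Slc37a2 values were then 0.97 and 0.94, and those of Ankrd37 were -1.02 in both. For Pgam1 the differences were 0.94 (adjusted p = 0.0748) and 0.93 (adjusted p = 0.0621), so its change was not shown to differ between cell types. Between macrophages and microglia none of the 34 genes and 0% of clusters passed, with 2 genes at an unadjusted p under 0.05 in the limma test. Across the clusters that passed, the share that was higher moved from 63.4% as deposited to 58% after quantile normalization and 82.4% after centring for neutrophils against macrophages, and from 70.1% to 61.5% and 83.7% for neutrophils against microglia.

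Neighbouring pathways were read from 6 further lists of 128 genes, of which 117 were measured. Their counts stand beside 22% of all clusters higher and 32.3% lower in WT neutrophils than in WT microglia, and 9.62% higher and 27.9% lower in WT macrophages. Between cell types, the genes of pyruvate entry and the TCA cycle, which burns pyruvate in mitochondria, were lower in WT neutrophils than in WT microglia for 26 of 32 and higher for none, with a median of -1.16. Mdh1, cytosolic malate dehydrogenase, was at -2.97, Idh2, the mitochondrial NADP isocitrate dehydrogenase, at -3.77, and Fh1, fumarase, at -2.56. With the broadly expressed level as a covariate, 6 of the 32 were lower and 3 higher. That level is lower in neutrophils partly by the way its clusters were chosen, so these counts decide nothing. In WT macrophages 5 of the 32 were lower and 2 higher than in WT microglia.

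Of 31 other genes of the HIF pathway, 11 were higher and 7 lower in WT neutrophils than in WT microglia, with Ndrg1, a stress-induced differentiation gene, at 4.77 and the transcriptional repressor gene Bhlhe40 at 4.04, while Plod1, a lysyl hydroxylase of collagen, was at -3.91. In WT macrophages 5 were higher and 7 lower, with Ndrg1 at 4.86, Bhlhe40 at 4.53 and Plod1 at -2.39. These are 58.1% and 38.7% of the 31, near the 54.3% and 37.5% of all clusters that passed. Of 13 glycogen genes 3 were higher and 4 lower in WT neutrophils than in WT microglia, 53.8% and again near the array's share. Pygl, the liver glycogen phosphorylase, exceeded WT microglia by 7.73 in WT neutrophils (SE 0.37, adjusted p = 1.75e-16) and by 4.37 in WT macrophages. The brain form Pygb went the other way, at -3.08 and -1.0.

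Of 22 other genes of glycolysis and gluconeogenesis, 4 were higher and 13 lower in WT neutrophils than in WT microglia, and 1 was higher and 10 lower in WT macrophages. Gpd2, the mitochondrial glycerol phosphate dehydrogenase, was the one higher in macrophages, by 2.46, and was higher by 3.81 in neutrophils. G6pc3, the glucose 6-phosphatase that neutrophils need, was at -4.08 in neutrophils and -2.45 in macrophages. Of 7 further pentose phosphate genes, Taldo1, transaldolase, was higher by 1.42 in both, and Prps1 was at -2.58 and -1.19. Of 12 regulators of mTORC1 and MYC, 2 were higher and 6 lower in WT neutrophils, with Myc at -5.31, and 3 were lower in WT macrophages, with Myc at -1.70.

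In KO against WT neutrophils, 15 of the 32 genes of pyruvate entry and the TCA cycle rose and none fell, with a median of 0.66. Over all clusters 10.7% were higher and 9.14% lower, and the median was -0.13. These background shares hold for the lists that follow. Fh1 rose by 1.29 (SE 0.16, adjusted p = 4.5e-06), Idh2 by 2.47 (SE 0.37, adjusted p = 2.91e-05) and Pdp1, the phosphatase that reactivates pyruvate dehydrogenase, by 2.06 (SE 0.31, adjusted p = 3.37e-05). The count was 7 without WT neutrophils 3 and 4, where 6.84% of all clusters passed, and 1 with the broadly expressed level as a covariate, where 2.16% did. Of the glycogen genes 3 rose and 2 fell, with Gaa, the lysosomal glucosidase, higher by 2.32 and Pygl and Pygm at -1.25 and -1.28. Of the other glycolysis genes 3 rose and 1 fell, led by the monocarboxylate transporter gene Slc16a7 (2.66, SE 0.37, adjusted p = 1.53e-05). Of the other HIF pathway genes 4 rose, among them Mif (1.11) and Higd1a (1.02), and none fell. Of the mTORC1 and MYC list 3 rose, led by Myc (2.75, adjusted p = 0.000944), and of the pentose phosphate list H6pd rose by 0.84 (adjusted p = 0.0283). Without WT neutrophils 3 and 4, the counts higher and lower were 2 and 0 for the glycogen genes, 2 and 0 for other glycolysis, 3 and 0 for the other HIF pathway, 0 and 1 for mTORC1 and MYC, and 0 and 0 for pentose phosphate. In KO against WT macrophages and microglia no gene of the 6 lists passed.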

How the data were processed

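The data are 30 Affymetrix Clariom HT arrays of sorted mouse cells. The linear intensities that the authors deposited were made with RMA, per the submitters' processing notes, which combines background correction, normalization between arrays and summary of probes. Its version and the arrays normalized together are not given in the sources used here. The log2 of each intensity was taken with a pseudocount of 0 and no filter.

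Means of the 6 groups were fitted with limma 3.58.1 (R 4.3.3), and contrasts were tested with its moderated test and Benjamini-Hochberg adjustment over 22103 clusters. Members and lists were chosen with earlier results of these data known. Every measured member is named. Array values are given for the 4 members with the largest differences that passed between KO and WT neutrophils, for the 2 with the smallest p in macrophages and in microglia, and for the 3 with the largest differences in each direction between WT cell types, besides others singled out after their values were seen. Up to 3 passing genes per direction stand for each further list. The promoter scan used RefSeq windows (GRCm38.p6).

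The labels do not say whether a replicate number pairs arrays across groups, so arrays were not paired in the main fit. Alternatives were quantile normalization, median centring, array weights, a variance trend, no dim clusters (lowest 25%), 1 cluster per gene, fewer arrays, a covariate and a replicate block. On simulated data for 22103 genes, changes of 1 log2 unit were recovered in 48% of cases for neutrophils, 56% for macrophages and 82% for microglia, and changes of 2 in 96%, 92% and 98%. The simulation gave a gene the same SD in all groups and changed 200 genes. In the data WT neutrophils varied most and 4390 clusters passed between KO and WT neutrophils, so these rates may not hold there. Figures used matplotlib 3.10.9.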

Additional observations from a re-analysis of the deposited data

Results flagged for a closer look

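The change of Slc37a2 with genotype differed between cell types by a test of the difference itself, by 3.37 log2 units for neutrophils against macrophages and 3.11 for neutrophils against microglia. Ankrd37 differed in the same way in the other direction, by -1.17 and -1.16.

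Single arrays lay far from the rest of their group, by the Dixon test at its 95% critical value, in 16 of the 170 combinations of a gene and a group of 4 to 6 arrays, where chance gives about 5%. KO macrophage 4 gave 4 of these. Its log2 level was 8.74 for Slc2a6 (other KO macrophages 7.65 to 7.81), 7.82 for Hk3 (8.92 to 9.25), 14.03 for Tpi1 (14.67 to 14.90) and 5.74 for Adm (4.48 to 4.67). KO neutrophil 5 gave 3 in which it was low, with 12.58 for Tpi1 (other KO neutrophils 14.47 to 14.74), 13.82 for Pkm (14.66 to 14.82) and 10.38 for Pgd (11.63 to 11.82).

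Among the other KO macrophages, Pfkl was 9.10 on array 6 (others 9.73 to 9.95) and Gapdh was 15.80 on array 5 (others 15.59 to 15.66). KO microglia 6 was low in Slc16a1 at 8.76 (others 9.07 to 9.21) and in Pgd at 8.73 (others 10.06 to 10.48), KO microglia 4 was high in Pfkp at 7.83 (others 6.05 to 6.63) and KO microglia 2 was high in Pgam1 at 14.10 (others 13.13 to 13.37). In WT cells, Vegfa was 11.29 on microglia 1 (others 9.67 to 9.98), Bnip3 was 10.03 on neutrophil 3 (others 9.46 to 9.52) and Bnip3l was 14.85 on neutrophil 2 (others 14.25 to 14.34).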

How the results depend on the processing

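Counts are of the 34 genes that passed. For KO against WT neutrophils (7) the count was 0 with the broadly expressed level as a covariate, 1 in a fit to the 9 neutrophil arrays only, 4 without WT neutrophils 3 and 4, 2 in the neutrophil fit without WT neutrophil 4 and 0 in that fit with the covariate, where the Slc37a2 difference turned to -0.0101. Over all clusters, 4390 passed and these settings gave 478, 1084, 1511, 977 and 0. With the covariate the counts were 16 for WT neutrophils against WT microglia and 9 against WT macrophages, Slc37a2 turned to 0.66 and 0.35, and Tpi1 turned to 0.0633 against macrophages. The covariate is lower in neutrophils partly by the way its clusters were chosen, so these cell type values decide nothing. The change with genotype in neutrophils against macrophages (2) gave 1 gene with centring, with a variance trend, with the replicate block or without WT neutrophils 3 and 4, and 0 with the covariate or only the arrays compared. Against microglia (2) it gave 4 with array weights, 0 with the covariate and 1 with the replicate block, with only the arrays compared or without WT neutrophils 3 and 4. With arrays left out in turn the counts ran from 4 to 7 for KO against WT neutrophils, 1 to 5 for the difference from macrophages, 1 to 4 for that from microglia, 23 to 27, 19 to 21 and 18 to 20 for the WT cell types (neutrophils against microglia, macrophages against microglia, neutrophils against macrophages) and 23 to 25, 20 to 22 and 12 to 17 for KO. Both fits of KO against WT in macrophages and microglia gave 0 throughout. Without KO microglia 2 and 4 together, the KO excess over microglia of Slc2a3 in neutrophils and of Hk1 in macrophages did not pass. The Hk1 value was then 1.04 (adjusted p = 0.0732). Replicate numbers are shared between groups. Deviations of same-numbered arrays correlated at -0.202 to 0.261 over 13 WT and KO pairs, 4 of them over 0.1. Those included array 1 of neutrophils, macrophages and microglia (0.261, 0.135 and 0.110). Over 26 pairs of 2 cell types they ran from -0.162 to 0.158, with 2 over 0.1. Whether numbers mark pairs was not settled. The replicate block gave 5 for KO against WT neutrophils, with Hk1 (adjusted p = 0.0795) and Pfkfb3 (0.0503) lost. The WT neutrophil arrays vary most, and their part in these counts was not tested further.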
